A study of Mus musculus with 12 samples.

Results

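The Notch pathway was followed through 10 of its genes in tumourspheres, floating colonies grown without serum, of 2 mouse mammary cancer lines. The 10 genes were chosen by name and role from 18278 genes with counts: the receptors Notch1, Notch2, Notch3 and Notch4, the ligands Jag1, Jag2 and Dll1, the target genes Hes1 and Hey1, and Rbpj, the DNA-binding partner of the cleaved receptor. All 10 had counts and passed the filter on low values. LM1 and LM9 are lung metastasis lines recovered from mice that carried piggyBac-mutagenised HR1 cells, which come from a tumour with mutant PIK3CA. LM1KO and LM9KO are their Nfib knockouts, each a pool of single-cell clones, fewer in LM9KO than in LM1KO, edited with Cas9 and guides to early exons of Nfib, and they share the mutagenised origin with the parental lines. Each of the 4 groups had 3 RNA-seq libraries, made from spheres grown for 6 days from 10000 cells per mL with EGF and basic FGF. No label says that the 3 libraries of a group came from separate cultures, so p-values measure the spread between these libraries, which may be technical.

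Notch signalling passes between touching cells. A Jagged or Delta-like ligand on one cell pulls on a Notch receptor on its neighbour, ADAM proteases and γ-secretase then cut the receptor, and its freed intracellular domain enters the nucleus. There it binds RBPJ and Mastermind-like coactivators and switches on repressor genes of the Hes and Hey families. In the mammary gland the pathway is known for its part in luminal cell fate, and in mammary cancer it has been tied to the self-renewal that tumourspheres are used to assay.

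Library totals ranged from 29249075 to 37162594 counts, so that 3 counts, used here as the floor, equalled 0.0807 to 0.103 counts per 1000000 counts (CPM). CPM below are scaled by edgeR's TMM factors, and levels of different genes are compared only after division by exon length, as CPM per kb. Nfib, the targeted gene, had 196, 217 and 241 CPM in LM1 and 239, 238 and 228 CPM in the libraries labelled LM1KO. It had 210, 120 and 133 CPM in LM9 and 227, 247 and 246 CPM in the libraries labelled LM9KO, a log2 fold change of 0.11 (adjusted p = 0.533) and 0.68 (adjusted p = 0.0026) in LM1 and LM9, or 0.93 in LM9 without replicate 1. The knockout labels were thus not borne out by the mRNA, but counts over all exons do not show a frameshift edit. The paper screened the clones by immunoblot, and protein is not measured by these counts. The libraries with these labels are called labelled knockout throughout, and each direction below rests on that label. LM9 replicate 1 stood apart from its group: its log2 CPM correlated with those of the LM1 libraries at r = 0.9980 to 0.9983 and with those of the other LM9 libraries at 0.9717 to 0.9740. Among the 10 genes it lay nearer to the LM1 mean than to the mean of LM9 replicates 2 and 3 for 10, and inside the LM1 range for 7. The LM9 values of the 10 genes and of the named pathway genes with a fitted change or a pooled ratio are therefore given with it and, where they were called, also without it. The 6 libraries labelled knockout could hardly be told apart, with r between 0.9982 and 0.9987 within and between the LM1KO and LM9KO pools. Summed over 5 of 6 luminal epithelial markers (Epcam, Krt8, Krt18, Krt19 and Cdh1), the level was 737 to 787 CPM in LM1 and 786 to 1327 CPM in LM9, but 0.931 to 1.11 CPM in LM1KO and 0.936 to 1.06 CPM in LM9KO. Cdh1 had 3 counts or fewer in every library labelled knockout. Of 6 endothelial markers, 3 were analysed here (Pecam1, Cdh5 and Kdr), and their sum was 0.213 to 0.470 CPM in LM1, 0.202 to 1.33 CPM in LM9, 355 to 358 CPM in LM1KO and 350 to 359 CPM in LM9KO. The sum is that of Kdr and Cdh5, since Pecam1 had 0.213 to 0.368 CPM in LM1, 0.169 to 1.33 CPM in LM9, 0.327 to 0.555 CPM in LM1KO and 0.243 to 0.415 CPM in LM9KO. Summed over 6 mesenchymal markers (Vim, Fn1, Cdh2, Zeb1, Twist1 and Pdgfrb), the level was 14285 to 15599 CPM in LM1, 14005 to 16346 CPM in LM9, 5858 to 5881 CPM in LM1KO and 5700 to 5818 CPM in LM9KO. Most of this sum was Fn1 in the parental lines, at 11315 to 12435 CPM in LM1, and Vim in the libraries labelled knockout, where Fn1 had 192 to 197 CPM in LM1KO. Fn1 alone was lower in LM1KO than in LM1, and the other 5 markers were higher. In LM9KO against LM9 the same held, except that Vim overlapped, at 3179 to 5543 CPM in LM9 and 5158 to 5270 CPM in LM9KO. Vim had 2940 to 3225 CPM in LM1 and 5304 to 5330 CPM in LM1KO, Twist1 27.5 to 29.1 and 105 to 108 CPM, Zeb1 0.0354 to 0.145 and 132 to 136 CPM, Pdgfrb 1.56 to 1.74 and 115 to 116 CPM, and Cdh2 0 and 0.423 to 0.444 CPM. Over 3 of 5 basal markers (Krt14, Krt17 and Trp63) the sum was 15.8 to 19.1 CPM in LM1, 0.443 to 18 CPM in LM9, 7.40 to 7.63 CPM in LM1KO and 6.78 to 7.57 CPM in LM9KO. Trp63 alone was lower in LM1KO, with 15.8 to 19.0 CPM in LM1 and 0.238 to 0.392 CPM in LM1KO. Krt14 had at most 0.145 CPM in LM1 and 6.71 to 6.90 CPM in LM1KO. Krt17 had at most 0.0613 and 0.277 to 0.470 CPM. In LM9 Trp63 overlapped, at 0.0403 to 17.9 CPM beside 0.156 to 0.337 CPM in LM9KO. Krt14 and Krt17 were higher in LM9KO than in LM9. Of 5 leukocyte markers Cd68 alone was analysed here, with 450 to 467 CPM in LM1, 466 to 554 CPM in LM9, 98.8 to 103 CPM in LM1KO and 95.7 to 104 CPM in LM9KO. The part of these markers in the results was not tested. In such bulk samples, fewer cells of a type and less RNA per cell cannot be told apart.

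Within these profiles the ligands, the targets, Rbpj and Notch1 were lower in the libraries labelled knockout of both lines, whereas no other receptor fell. By limma-voom with Benjamini-Hochberg adjustment over 18176 genes, 8 of the 10 genes changed between LM1KO and LM1, with 1 higher and 7 lower. Of all genes tested, 81.2% were called in this comparison, 43.1% higher and 38.1% lower. In LM9KO against LM9, 9 of 10 changed, with 2 higher and 7 lower, against 82.3% of all genes (44.3% higher and 38% lower). Without LM9 replicate 1 the count was again 9, against 88.9% of all genes. The shares called were thus near the background. Jag2 and Hey1 had under 10 counts in every library labelled knockout and passed the filter only through the parental libraries, so their calls add no support to these counts. Of the other 8 genes, 1 was higher and 5 lower in LM1, and 2 were higher and 5 lower in LM9, with a median log2 fold change of -1.59 and -1.68. The 7 lower genes, Notch1, Jag1, Jag2, Dll1, Hes1, Hey1 and Rbpj, were lower in both lines. The median log2 fold change over the 10 genes was -1.99 in LM1 and -2.38 in LM9, where it was 0.08 and 0.13 over all genes. It was the same with Hey1 in LM1 set to its lower bound (at least 8.30-fold lower), and the median absolute log2 change over all genes was 1.16 and 1.24. In CPM the groups did not overlap for 10 of 10 genes in LM1 and for 9 of 10 in LM9, against 89.1% and 80.5% of all genes. Jag2 and Hey1 are in both counts and add no support here either. Of the other 8 genes, Notch4 alone overlapped, and only in LM9.

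**Figure D1:**
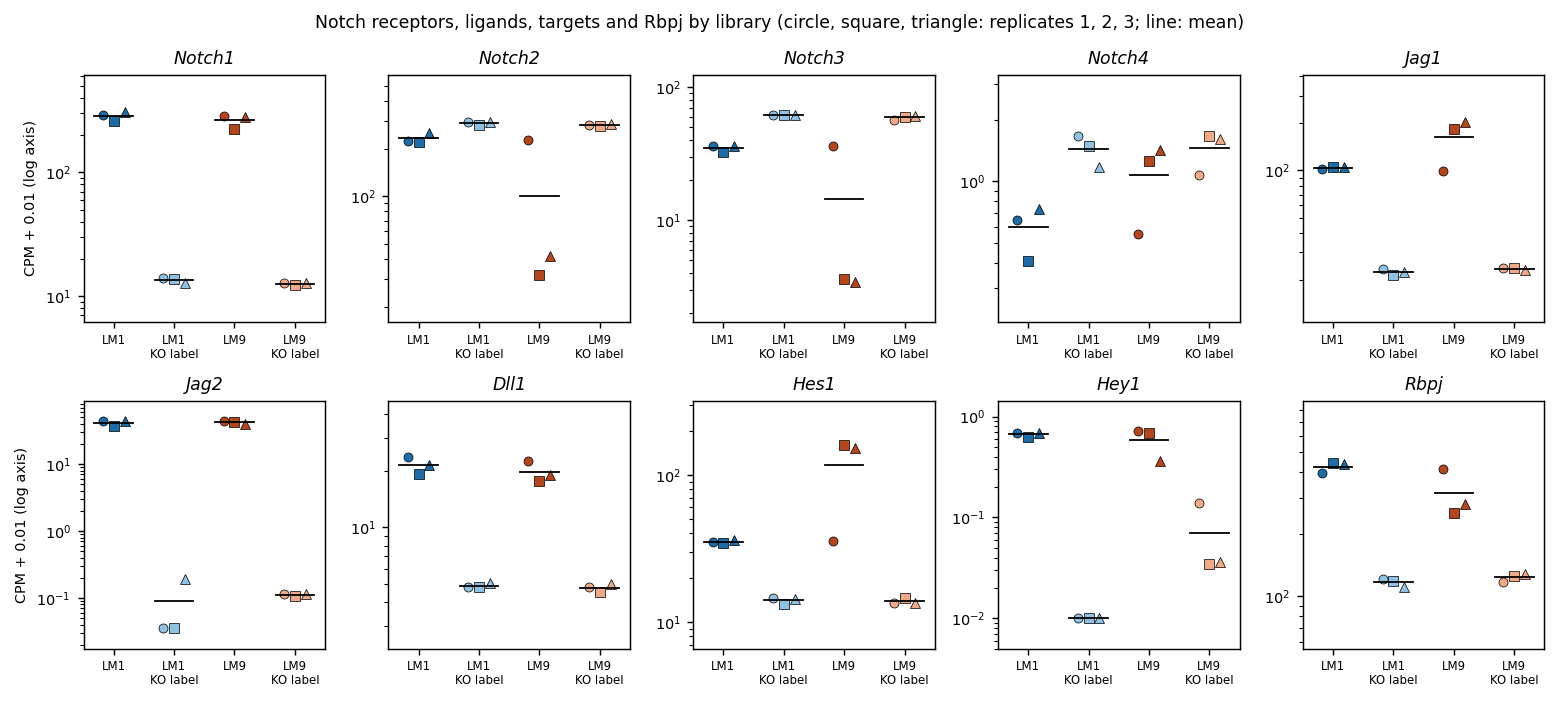
Level of each of the 10 genes in every library, as CPM plus 0.01 on a log axis, with replicates 1, 2 and 3 as circle, square and triangle and the group mean as a line. The libraries labelled knockout sit together in both lines, and LM9 replicate 1 sits with LM1 for Notch2, Notch3, Jag1 and Hes1.

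The receptors split. Notch1 and Notch2 are paralogous single-pass receptors with the same ligands, and they went opposite ways in LM9. The sequences before their RefSeq starts are shown because these 2 receptors made up most of the receptor mRNA. They are from RefSeq on GRCm38.p6, stop short of every annotated exon, and have each CG dinucleotide in capitals. The Notch1 stretch lies at chr2:26503825-26504072 on the minus strand and the Notch2 stretch at chr3:98013288-98013526 on the plus strand. The Notch1 stretch lies inside the longer gene of GENCODE M21, whose annotated start is further upstream.
Notch1: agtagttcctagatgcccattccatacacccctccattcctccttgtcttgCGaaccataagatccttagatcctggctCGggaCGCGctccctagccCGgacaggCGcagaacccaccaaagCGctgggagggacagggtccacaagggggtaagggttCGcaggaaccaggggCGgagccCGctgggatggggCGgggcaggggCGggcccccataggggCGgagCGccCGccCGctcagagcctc
Notch2: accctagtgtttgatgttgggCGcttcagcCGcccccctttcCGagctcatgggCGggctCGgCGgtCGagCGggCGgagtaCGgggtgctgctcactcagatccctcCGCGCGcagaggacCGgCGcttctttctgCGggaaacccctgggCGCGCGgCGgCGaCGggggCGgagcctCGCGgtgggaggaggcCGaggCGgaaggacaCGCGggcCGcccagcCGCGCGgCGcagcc
The Notch1 stretch held 16 CG dinucleotides and the Notch2 stretch 34, where the median over 32851 promoter windows of 250 bases was 6. Both stretches are thus rich in CG, with more in Notch2.

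Notch1 (ENSMUSG00000026923, chr2:26457903-26516663) had 294, 261 and 309 CPM in LM1 and 13.9, 13.8 and 12.7 CPM in LM1KO. It had 286, 226 and 279 CPM in LM9 and 12.8, 12.3 and 12.8 CPM in LM9KO. Every parental library was high, with LM9 replicate 1 within the LM1 range, and every library labelled knockout was low. Notch1 fell by 4.41 on the log2 scale in LM1 (SE 0.11, adjusted p = 2.77e-11), 21.3-fold, and fell by 4.38 in LM9 (SE 0.11, adjusted p = 3.14e-11), 20.8-fold. In LM9 it fell by 4.31 without LM9 replicate 1. Its exons share 1068 bases with 0610009E02Rik on the other strand, and whether counting used strand is not given in the sources used here. Exons of Notch2 share 541 bases with Gm42820 on the same strand, and those of Notch3 share 488 with Gm17276 on the other.

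Notch2 (ENSMUSG00000027878, chr3:98013527-98150361) had 225, 221 and 250 CPM in LM1 and 295, 283 and 294 CPM in LM1KO. In LM9 it had 227, 31.8 and 42.1 CPM, and 284, 278 and 285 CPM in LM9KO. LM9 replicates 2 and 3 were low, replicate 1 was at the LM1 level, and neither pair of groups overlapped. It rose by a log2 fold change of 2.05 in LM9 (SE 0.51, adjusted p = 0.00308), and by 2.95 without LM9 replicate 1 (adjusted p = 1.23e-15). In LM1 the log2 fold change of 0.33 (SE 0.49) missed the threshold (adjusted p = 0.549) in the fit over 12 libraries, whose spread includes that of LM9. Without LM9 replicate 1 the same change of 0.33 passed it (adjusted p = 1.44e-05).

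Notch3 (ENSMUSG00000038146, chr17:32120820-32166852), a receptor best known from vascular smooth muscle, followed the same pattern. It had 35.9, 32.7 and 36.2 CPM in LM1, 62.0, 61.2 and 61.3 CPM in LM1KO, 36.0, 3.59 and 3.42 CPM in LM9, and 56.7, 59.9 and 61.0 CPM in LM9KO. Again LM9 replicate 1 stood at the LM1 level and the other LM9 libraries were lower by a factor of 10.3. The log2 fold change was 2.87 in LM9 (SE 0.57, adjusted p = 0.000589) and 4.07 without LM9 replicate 1 (adjusted p = 6.94e-15). In LM1 it was 0.82 (SE 0.43, adjusted p = 0.0983), and 0.82 with an adjusted p of 1.4e-11 once LM9 replicate 1 was left out.

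Notch4 (ENSMUSG00000015468, chr17:34564268-34588503), the receptor typical of endothelium, was low throughout, with 13 to 68 counts a library. It had 0.638, 0.398 and 0.723 CPM in LM1, 1.66, 1.49 and 1.16 CPM in LM1KO, 0.540, 1.25 and 1.42 CPM in LM9, and 1.06, 1.65 and 1.61 CPM in LM9KO. It rose by a log2 fold change of 1.31 in LM1 (SE 0.38, adjusted p = 0.00705). In LM9 the groups overlapped, the log2 fold change was 0.54 (95% interval -0.22 to 1.3, adjusted p = 0.168), and it was 0.09 without LM9 replicate 1.

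Compared per kb, Notch1 lost its place in the mix of receptor mRNA, and Notch2 and Notch3 took larger shares. Notch1 made up 43.8% ± 1.06 (SD, n = 3) of the summed receptor level in LM1 and 2.66% ± 0.15 in LM1KO, and Notch2 46.7% ± 1.23 and 75.5% ± 0.49. Notch3 made up 9.37% ± 0.31 and 21.3% ± 0.30. In LM9 the Notch1 share was 44.1% in replicate 1 and 81.7% and 81.3% in replicates 2 and 3, and in LM9KO it was 2.56% ± 0.045. The Notch2 share in LM9 was 46%, 15.2% and 16.2% in replicates 1, 2 and 3, so that replicates 2 and 3 held mostly Notch1. The shares of all 4 receptors in the libraries labelled knockout were close between the lines, with Notch2 at 75.7% ± 0.74 and Notch3 at 21.2% ± 0.67 in LM9KO. The summed receptor level was 42.9 to 49.5 CPM per kb in LM1, 35.0 to 36.2 in LM1KO, 19.4 to 45.7 in LM9 and 34.3 to 35.1 in LM9KO. The sums did not overlap between the groups in LM1 and overlapped in LM9.

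**Figure D2:**
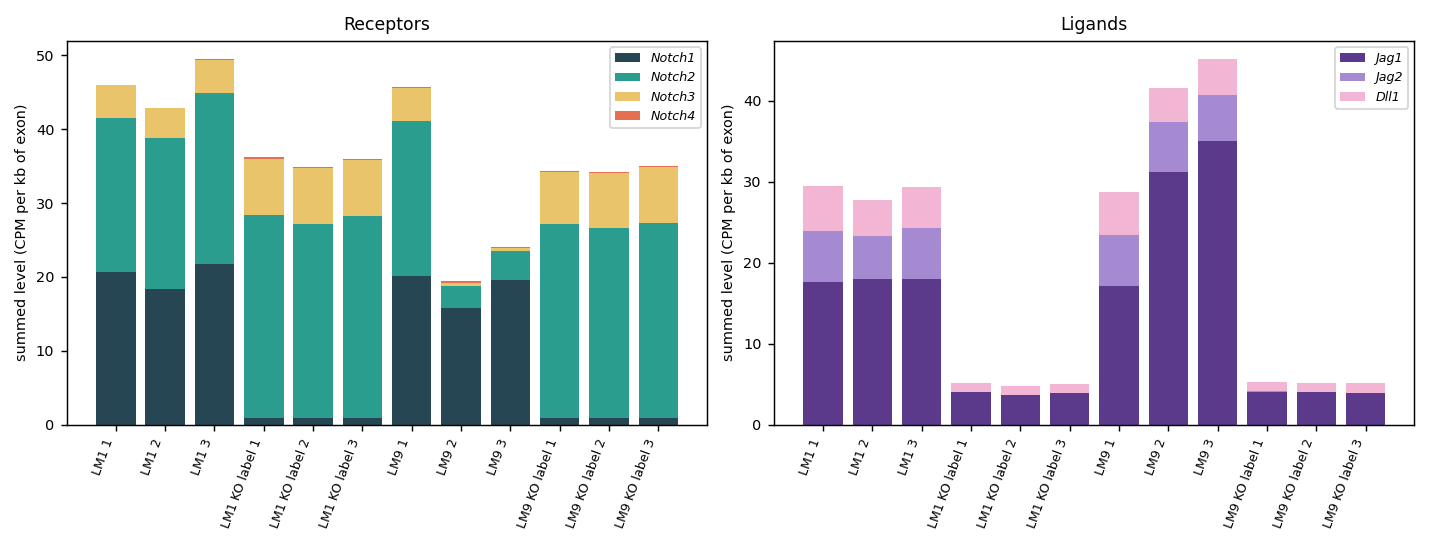
Summed level of the 4 receptors (left) and 3 ligands (right) in each library, in CPM per kb of exon, stacked by gene. Notch1 nearly vanishes from the receptor bars of the libraries labelled knockout, Jag2 is not visible in their ligand bars, and LM9 replicates 2 and 3 differ from replicate 1 in both panels.

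All 3 ligands fell in both lines. Jag2 (ENSMUSG00000002799, chr12:112907819-112929776), a Jagged ligand, was well detected in the parental lines and had 7 counts or fewer in every library labelled knockout. It had 43.9, 37.1 and 43.9 CPM in LM1 and 44.1, 42.9 and 39.4 CPM in LM9. The libraries labelled LM1KO held 1, 1 and 7 counts and those labelled LM9KO 4, 4 and 4, so that even the highest was far under any parental library. Pooled over libraries, Jag2 was 533-fold lower in LM1KO (95% counting interval 280 to 1167) and 416-fold lower in LM9KO (238 to 805; 405-fold without LM9 replicate 1), both intervals covering counting error only. The fitted log2 fold changes, -9.29 and -8.53, depend at such counts on the offset of 0.5 that voom adds. No p-value is given since Jag2 passed the filter only where it was high.

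Jag1 (ENSMUSG00000027276, chr2:137081456-137116644), the other Jagged ligand, kept a moderate level. It had 102, 105 and 105 CPM in LM1 and 23.6, 21.5 and 22.6 CPM in LM1KO. In LM9 it had 99.7, 182 and 204 CPM, with replicate 1 again beside LM1, and in LM9KO 23.9, 23.7 and 23 CPM. Jag1 fell by 2.20 on the log2 scale in LM1 (SE 0.22, adjusted p = 2.48e-06) and by 2.71 in LM9 (SE 0.22, adjusted p = 3.43e-07). Without LM9 replicate 1 it fell by 3.03 in LM9.

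Dll1 (ENSMUSG00000014773, chr17:15367354-15376872), a Delta-like ligand, had 23.5, 19.2 and 21.4 CPM in LM1 and 4.78, 4.83 and 5.02 CPM in LM1KO. It had 22.6, 17.5 and 18.9 CPM in LM9 and 4.80, 4.52 and 4.99 CPM in LM9KO. The parental libraries lay together in both lines, and so did those labelled knockout. Dll1 fell by 2.12 on the log2 scale in LM1 (SE 0.12, adjusted p = 1.85e-08) and by 2.04 in LM9 (SE 0.13, adjusted p = 2.94e-08), or fell by 1.93 without LM9 replicate 1, about the same size as Jag1 in LM1. The summed ligand level was 27.8 to 29.5 CPM per kb in LM1 and 4.84 to 5.19 in LM1KO, and 28.8 to 45.2 in LM9 and 5.15 to 5.25 in LM9KO. Jag1 was the main ligand everywhere, at 61.8% ± 2.47 of the sum in LM1 and 76.8% ± 1.12 in LM1KO. Jag2 fell from 20.7% ± 1.32 to 0.223% ± 0.26 of it.

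Hes1 (ENSMUSG00000022528, chr16:30064384-30067796), the repressor most often read as a Notch target, set the LM9 libraries apart. It had 34.7, 34.1 and 36.1 CPM in LM1 and 14.5, 13.2 and 14.4 CPM in LM1KO. In LM9 it had 35.5, 159 and 153 CPM, and in LM9KO 13.4, 14.4 and 13.5 CPM. LM9 replicates 2 and 3 were 4.39-fold above replicate 1, which equalled LM1, while all libraries labelled knockout shared a lower level. Hes1 fell by 2.77 on the log2 scale in LM9 (SE 0.50, adjusted p = 0.000312) and by 3.49 without LM9 replicate 1 (adjusted p = 5.05e-19). In LM1 it fell by 1.32 (SE 0.53, adjusted p = 0.0375). That call was lost when any 1 of the LM1 or LM1KO libraries was left out (adjusted p = 0.0735 to 0.0852) and was far firmer without LM9 replicate 1 (adjusted p = 2.38e-13).

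Hey1 (ENSMUSG00000040289, chr3:8663359-8667256), a related repressor, had few counts in every group, at most 21 a library. It had 19, 20 and 19 counts in LM1 and 0, 0 and 0 in LM1KO, at least 8.30-fold lower with a floor of 3 counts per library. It had 21, 17 and 9 counts in LM9 and 5, 1 and 1 in LM9KO, a pooled ratio of 9.93 (95% counting interval 4.46 to 26.0), or 8.74 (3.69 to 23.8) without LM9 replicate 1. The groups did not overlap in either line. The fitted log2 fold changes, -5.70 and -3.31, depend on voom's offset at such counts and are no bounds. No p-value is given, for the same reason as for Jag2.

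Rbpj (ENSMUSG00000039191, chr5:53466152-53657362) encodes the factor that carries the Notch signal to DNA and sits with corepressors at the same sites when the signal is absent. Per kb it was the most abundant of the 10 genes in LM1, at 33.4 ± 1.98 CPM per kb. The stretch before its RefSeq start, chr5:53590096-53590213 on the plus strand of GRCm38.p6, is shown because Rbpj was the member with a match to the RBPJ core motif. It ends 132 bases before that start, where annotated exon begins, and lies inside the longer GENCODE M21 gene.
Rbpj: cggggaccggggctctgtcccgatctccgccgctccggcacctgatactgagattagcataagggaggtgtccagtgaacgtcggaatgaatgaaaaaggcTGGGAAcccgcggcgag
Capitals mark the match to TGGGAA. Among 10 windows of 250 bases that matched 8 of the 10 genes, with Hes1 and Hey1 not matched, the core was found on either strand in those of Rbpj alone, and in 21.6% of all 32851 windows. The 2 Rbpj windows overlap, and the match in the second is one of the 2 in the first. The letters TTGGCA of the NFI factors, to which NFIB belongs, was found in 0 of the 10 windows and in 12.3% of all. The full palindromic NFI site was found in 0 of them and in 0.0365% of all. These are letters in windows and not sites shown to be bound.

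Rbpj had 398, 445 and 437 CPM in LM1 and 121, 119 and 112 CPM in LM1KO. It had 414, 253 and 281 CPM in LM9 and 117, 125 and 128 CPM in LM9KO. LM9 replicates 2 and 3 lay below the LM1 libraries, and all libraries labelled knockout lay below both. Rbpj fell by 1.86 on the log2 scale in LM1 (SE 0.14, adjusted p = 2.37e-07) and by 1.32 in LM9 (SE 0.15, adjusted p = 4.85e-06), or by 1.11 without LM9 replicate 1.

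**Figure D3:**
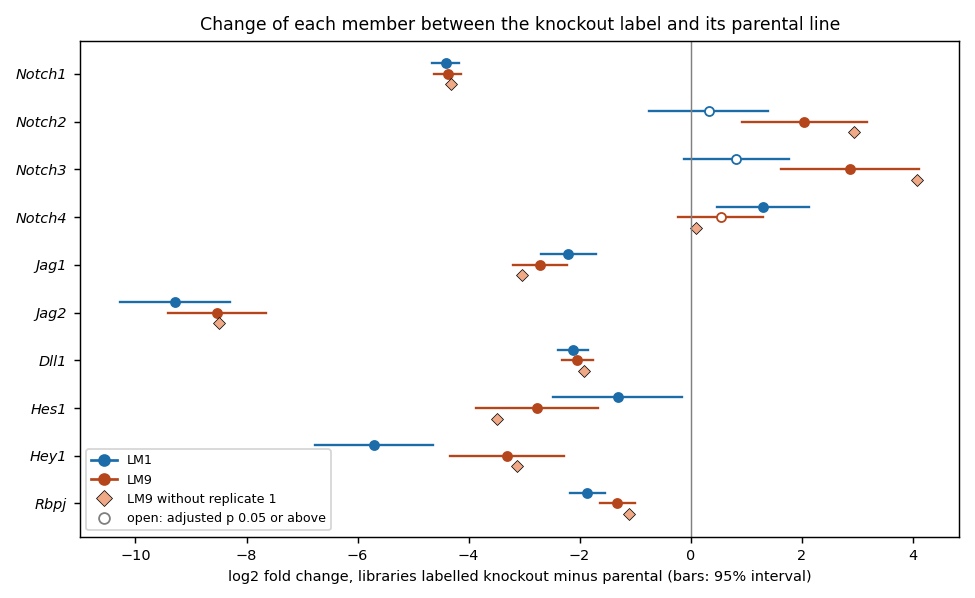
Log2 fold change of each gene between the libraries labelled knockout and the parental line, with 95% intervals, for LM1 and LM9, and for LM9 without replicate 1 as diamonds. Open points have an adjusted p of 0.05 or above. The points and intervals of Jag2 and Hey1 depend on voom's offset, and both genes passed the filter only where they were high. Notch1, Jag1, Jag2, Dll1, Hes1, Hey1 and Rbpj lie left of 0 in both lines, and the wide intervals of Notch2, Notch3 and Hes1 go with the split of the LM9 libraries.

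Between the parental lines LM1 and LM9, 0 of 10 genes were called in the 12-library fit, where 0.0055% of all genes were, with 5 of 10 at an unadjusted p under 0.05 against 47.7% of all. By DESeq2, which gave Notch2 and Notch3 no adjusted p, the count was 3, where 33.1% of all genes were called. By edgeR's quasi-likelihood test it was 0, where 0.0055% were. Without LM9 replicate 1 it was 8 of 10, 5 higher and 3 lower in LM1, against 65.7% of all genes. Then Notch2 and Notch3 were higher in LM1 by log2 differences of 2.66 and 3.31, and Hes1 and Jag1 lower by differences of -2.16 and -0.89. Jag2 (0.01) and Hey1 (0.39) were the genes not called. Leaving out this 1 library thus moved the count from 0 to 8.

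The change with the knockout label was compared between the lines by an interaction term. Hey1 and Jag2, kept by the filter for their parental counts alone, were left out of these counts. It was called for 0 of the other 8 genes and for 0% of all genes, with 3 of 8 at an unadjusted p under 0.05 against 24.7% of all, and for 0 by edgeR and 0 by DESeq2, which gave Notch2 and Notch3 no adjusted p. Without LM9 replicate 1 it was called for 6 of 8, all but Notch1 and Dll1, against 57.2% of all genes. The largest of these differences was that of Notch3, -3.25 on the log2 scale (LM1 minus LM9). For Notch1 the difference was -0.03 with a 95% interval of -0.38 to 0.31, and -0.10 without that library. Between the pools labelled knockout, 0 of these 8 genes were called by limma-voom, 0 by DESeq2 and 0 by edgeR. Here, too, DESeq2 gave Notch2 and Notch3 no adjusted p. By limma-voom 0% of all genes were called. At an unadjusted p under 0.05 there were 0 of 8, against 0.979% of all. The log2 differences of the 8 between the pools were -0.08 to 0.10. The interval was -0.18 to 0.38 for Notch1 but -1.03 to 1.11 for Notch2, so a difference of up to that size was not detectable for Notch2 in this fit.

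Around these 10 genes, 67 other genes of the pathway were listed by role, of which 59 were analysed here. In LM1KO against LM1, 45 of 59 changed, with 18 higher and 27 lower, and in LM9KO against LM9 48, with 23 higher and 25 lower. Over all genes 81.2% were called in LM1 (43.1% higher and 38.1% lower) and 82.3% in LM9 (44.3% higher and 38% lower), so these counts, and those by role below, are to be read against such shares. Of the 59, 6 had under 10 counts in every library of one side and passed the filter only through the other, Dll4 and Gxylt2 among them. Without these 6, 15 were higher and 25 lower in LM1, and 20 higher and 22 lower in LM9, of 53. The count in LM9 over all 59 without replicate 1 was 56, with 29 higher and 27 lower, against 88.9% of all genes. With the same sign in both lines, 17 were higher and 22 lower, and 0 were called with opposite signs. Dtx1, Gxylt2 and Helt among the higher and Dll4 and Hes7 among the lower belong to those 6 and add no support. Of all genes 39.6% were called higher in both lines, 33.5% lower in both and 0.0385% with opposite signs. The median log2 fold change over the 59 was -0.18 in LM1 and -0.08 in LM9, beside 0.08 and 0.13 over all genes. Over the 53 it was the same.

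**Figure D4:**
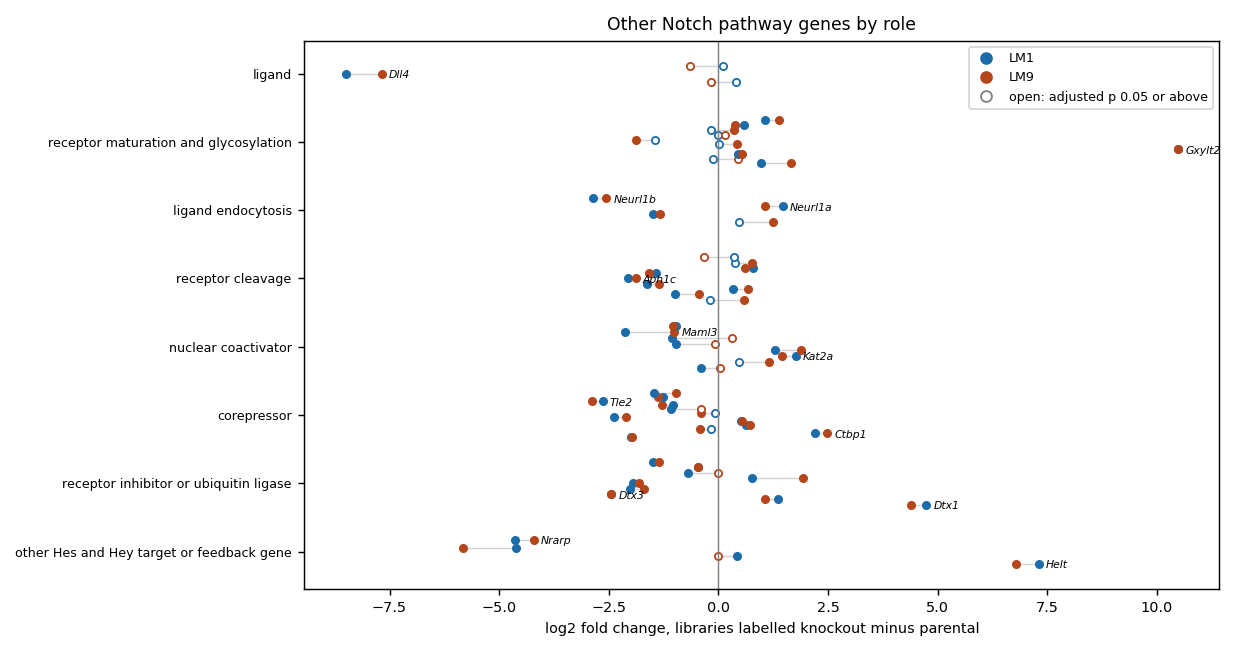
Log2 fold change (labelled knockout minus parental) of 59 other Notch pathway genes, grouped by role, with LM1 and LM9 joined by a line and open points for an adjusted p of 0.05 or above. The named genes are among the largest rises and falls of each role called in both lines. The fitted values of Gxylt2, Dll4, Dtx1 and Helt depend on voom's offset, and these genes passed the filter only where they were high.

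The remaining Delta-like ligand analysed, Dll4, known chiefly from endothelium, fell with the others. It had 319, 382 and 317 counts in LM1 and 0, 2 and 1 in LM1KO, and 350, 114 and 113 in LM9 and 2, 0 and 1 in LM9KO. Pooled, it was 444-fold lower in LM1KO (95% counting interval 152 to 2157) and 285-fold lower in LM9KO (96.9 to 1384), or 178-fold (60.1 to 870) without LM9 replicate 1, which held most of the LM9 counts. Dlk2 and Dner, noncanonical ligands, did not pass the test in either line. Of 4 ubiquitin ligases that drive ligand endocytosis, Neurl1a rose (log2 fold change 1.47 in LM1 and 1.06 in LM9, 0.74 without LM9 replicate 1) and Neurl1b fell (-2.86 and -2.56, -2.30 without it).

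Of 10 genes that sugar or mature the receptor, 5 rose, 0 fell and 5 were not called in LM1, beside 43.1% of all genes higher and 38.1% lower. In LM9 7 rose and 1 fell, beside 44.3% higher and 38% lower. The gene that fell, and Gxylt2 among those that rose in both lines, passed the filter only where they were high and add no support. Gxylt2, which adds xylose to Notch repeats, had 0, 3 and 2 counts in LM1 and 3182, 3033 and 3007 in LM1KO. It had 4, 0 and 1 counts in LM9 and 3216, 3254 and 3079 in LM9KO, so it was near-silent in every parental library. Pooled, it was 1409-fold higher in LM1KO (95% counting interval 604 to 4341) and 1291-fold higher in LM9KO (553 to 3977), or 4059-fold (728 to 160342) without LM9 replicate 1, which leaves 1 count in LM9. Of 9 genes for receptor cleavage, 2 rose and 4 fell in LM1, and 4 rose and 4 fell in LM9, again beside 43.1% and 44.3% of all genes higher and 38.1% and 38% lower. Aph1c, a subunit of γ-secretase, fell by 2.07 on the log2 scale in LM1 and fell by 1.89 in LM9, or fell by 1.78 without LM9 replicate 1.

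In the nucleus, 2 of 8 coactivator genes rose and 5 fell in LM1, and 3 rose and 2 fell in LM9. Of all genes 43.1% were higher and 38.1% lower in LM1, and 44.3% and 38% in LM9. Kat2a, a histone acetyltransferase, rose by log2 fold changes of 1.77 and 1.45 (1.35 without LM9 replicate 1). Maml3, a Mastermind-like coactivator, fell by 2.12 in LM1. In LM9 it had 38.3, 12.2 and 11.5 CPM, and in LM9KO 8.87, 9.24 and 8.55 CPM, so that replicate 1 carried most of its fall of 1.01 (adjusted p = 0.0239). With that library left out it fell by 0.41 (adjusted p = 0.000148). The call was lost without any 1 of the LM9KO libraries (adjusted p = 0.0521 to 0.0594) and with only the groups compared in the fit (adjusted p = 0.0975). Of 12 corepressor genes, 3 rose and 7 fell in LM1, and 3 rose and 8 fell in LM9. These, too, stand beside 38.1% and 38% of all genes lower and 43.1% and 44.3% higher. Ctbp1 rose by log2 fold changes of 2.19 and 2.49 (2.66 without LM9 replicate 1), and Tle2, of the Groucho family, fell by 2.64 in LM1 and fell by 2.88 in LM9, or fell by 2.95 without that library. Of 9 receptor inhibitors and ubiquitin ligases, 3 rose and 6 fell in LM1, and 3 rose and 5 fell in LM9, beside the all-gene shares given above. The Deltex gene Dtx3 fell by 2.45 and 2.46 (fell by 2.44 without LM9 replicate 1), whereas its relative Dtx1 had 0 counts in every parental library and 12 to 20 in those labelled knockout, at least 4.13-fold higher in LM1KO and 3.24-fold in LM9KO with a floor of 3 counts per library.

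The other feedback and Hes-related genes went both ways. Nrarp, a target that dampens Notch signalling in return, had 17.4, 13.5 and 15.9 CPM in LM1 and 0.503, 0.705 and 0.634 CPM in LM1KO. It had 16.9, 10.9 and 10.2 CPM in LM9 and 0.700, 0.681 and 0.598 CPM in LM9KO. Nrarp fell by 4.64 on the log2 scale in LM1 (SE 0.31, adjusted p = 6.32e-08) and by 4.21 in LM9 (SE 0.31, adjusted p = 1.35e-07), or fell by 3.97 without LM9 replicate 1. Hes7 had 29 to 36 counts in LM1, 30 to 35 in LM9, 0 to 4 in LM1KO and 0 to 2 in LM9KO. Helt, a repressor of the Hes and Hey kind, went the other way, with 1, 0 and 0 counts in LM1, 0, 2 and 0 in LM9, 151, 134 and 162 in LM1KO and 139, 143 and 136 in LM9KO. All 3 of Dtx1, Hes7 and Helt passed the filter only through the libraries where they were high.

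The genes whose pattern over the 12 libraries was most like that of a member were sought among 10272 genes with a mean of at least 10 CPM, by the root mean square difference of centred log2 CPM. The 12 points share their libraries and depth, and no test was made. For Notch1 they were Pou6f1 (0.12) and Mmd (0.12), both high in all parental libraries. For Jag1 they were Nenf (0.07) and Hcfc1r1 (0.08), and for Hes1 Gadd45b (0.08) and Nr1d1 (0.26). Gadd45b averaged 99.1 CPM in LM1, 42.3 in LM1KO and 40.4 in LM9KO. In LM9 it had 104, 437 and 419 CPM, and thus shared with Hes1 the high level of replicates 2 and 3 and the LM1-like level of replicate 1.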

How the data were processed

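The authors aligned stranded mRNA-seq reads to mm10 with STAR and counted reads over the exons of each gene with QuasR. The deposited values are raw counts, 1 file per library, and every gene has at least 8 counts in 3 libraries. Groups came from the labels. Symbols and exon lengths came from GENCODE M21 (18268 of 18278 identifiers matched). Counts were filtered (filterByExpr, minimum count 10), TMM-scaled and tested by limma-voom (limma 3.58.1, edgeR 4.0.16, R 4.3.3), the study's method, in 1 fit of 12 libraries. The 5 contrasts were each adjusted by Benjamini-Hochberg at 0.05. The fits were tested on simulated data in which few genes changed and no library stood apart. That setting does not show how they behave where most genes are called, as here. An exact permutation test of 3 against 3 libraries cannot go below p = 0.1. Alternatives included edgeR's quasi-likelihood test, DESeq2 1.42.0, other scalings and filters, and leaving out libraries. The genes, lists and tests were chosen with earlier results of these data known. The text names all 10 genes and Nfib, per role the largest rise and fall in LM1 among genes called alike in both lines, listed genes at 3 counts or fewer in every library of a group, and for Notch1, Jag1 and Hes1 the 2 most alike genes. Dlk2 and Dner, the ligands not called, were named after their values were seen. A gene that this rule names is not reported here.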

Additional observations from a re-analysis of the deposited data

How the results depend on the processing

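Over 1719 values of single genes under alternative settings, 1637 kept their direction and side of the threshold, 15 lost the threshold, 49 passed it newly and 18 changed sign, none of these in a comparison of a labelled knockout with its parental line. DESeq2 gave no adjusted p for 10 further values, those of Notch2 and Notch3. The count of genes called between LM1 and LM9, 0 in the main analysis, was 3 by DESeq2 (33.1% of all genes called), 4 with total counts (28.8%), 5 with a mean of at least 5 CPM (39.5%) and 8 with sample quality weights (63.8%). The interaction was called for 7 genes with these weights (58.1%). Hey1 was among them, passed the filter only through the parental libraries and adds no support to this count. Leaving out 1 library gave 0 to 8 genes for LM1 against LM9 and 0 to 7 for the interaction, with the highest values without LM9 replicate 1 (65.7% and 57.2% of all genes). It gave 7 to 10 for LM1KO against LM1 (10 without LM9 replicate 1), 9 for LM9KO against LM9 and 0 between the pools. The 7 for the interaction again include Hey1, and 6 of 8 were called with Hey1 and Jag2 left out. Jag2 and Hey1 are also in the counts for LM1KO and LM9KO against their parental lines. Leaving out 1 library gave 44 to 54 of the 59 other pathway genes in LM1 and 43 to 56 in LM9, beside 77.6% to 88.6% and 78.8% to 88.9% of all genes, highest without LM9 replicate 1. In LM1KO against LM1, fitting only these 2 groups called 10 (89.4% of all genes), and a mean of at least 5 CPM left 8 genes and called 6 (84.4%). Total counts moved the median log2 change over all genes from 0.08 to 0.31 in LM1 and from 0.13 to 0.49 in LM9. They ended the call of Hes1 in LM1 (adjusted p = 0.0612) and of Maml3 in LM9 (0.171) and made one of Notch4 in LM9 (log2 fold change 0.87, adjusted p = 0.0259).

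The sign changes were all of values near 0 that were not called. Notch4 between the pools was 0.0067 and became -0.0053 with edgeR, -0.0033 with DESeq2 and -0.013 with quality weights. Jag2 in LM1 against LM9 was -0.02 and became 0.11 with total counts and 0.049 with quality weights. Leaving out 1 library gave, between the pools, -0.19 to 0.15 for Notch4, -0.00036 to 0.069 for Hes1 and -0.0069 to 0.068 for Dll1. Between LM1 and LM9 it gave -0.069 to 0.057 for Jag2 and -0.0899 to 0.39 for Hey1, and for the interaction -0.10 to 0.075 for Notch1 and -0.18 to 0.00042 for Dll1.

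The replicate numbers pair no samples: deviations of same-numbered libraries correlated at -0.16 to 0.09. With the replicate block, 8 genes were called in LM1KO against LM1, where 80.3% of all genes were, and Notch4 between the pools became -0.024. The depth allows no statement on Hey1, Jag2 or Dll4 below 3 counts a library, and 3 libraries a group, with LM9 replicate 1 apart, limit the precision for Notch2, Notch3 and Hes1.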
